A study of Daphnia magna with 12 samples.

Results

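The genes described here are the 200 gene models of Daphnia magna whose level differed least from library to library across age and reproductive state. Daphnia magna, a water flea, is a planktonic crustacean in which 1 mother can found a clone of genetically alike daughters. The level of a gene is given in CPM, its reads per 1000000 reads of the library, with the column total as the library size. Among the 4349 of 21456 gene models that averaged at least 20 CPM over the 12 libraries, the 100 most abundant were set aside and 19 had no read in some library. The 200 with the smallest standard deviation (SD) of log2 CPM over all 12 libraries were taken from the remaining 4230, which are called eligible below, and ranked so that rank 1 has the smallest SD. The spread itself chose these genes, so their small spread is a description and no test is attached to it.

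The libraries came from females of 1 clone, GB-EL75-69, that were kept singly, and none had a treatment other than age. The 3 groups, of 4 libraries each, were old non-reproducing females, past reproduction and aged 130 to 170 days, old reproducing females of the same age range and young reproducing females aged 20 days. The tissue is labelled as the soma of the whole body. The labels do not say whether a library held 1 animal or several, so the p-values measure only the spread between these libraries, which may be partly technical. With 1 clone, no statement reaches other genotypes, and without a young non-reproducing group age and reproduction cannot be told apart between old non-reproducing and young females. In whole-body RNA, fewer cells of a type and less RNA per cell cannot be told apart.

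Genes of steady level are often called housekeeping genes, since many of them encode machinery that every cell needs, such as ribosomes, proteasomes and the enzymes of core metabolism. They serve as reference genes in quantitative PCR and as the fixed point of many scaling methods in RNA sequencing. A gene is steady only relative to what the libraries are scaled by, which here is the total of all reads. The files do not pair gene IDs with names, and 0 of the 21456 IDs matched the RefSeq gene table used here, so no gene is named, no function is given and no tissue marker was looked up. IDs are printed for 4 members, and the others are called by rank.

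Total counts ranged from 16015869 to 25659597 per library, and a member never had fewer than 292 reads in a library. The 100 most abundant genes, which the members exclude, held 35.0 to 45.1% of the reads of a library. Their share was 38.1 ± 3.60% in old non-reproducing, 40.8 ± 1.88% in old reproducing and 43.9 ± 0.779% in young females (SD, n = 4 each). The 200 members together held 3.05 ± 0.135% of the reads in old non-reproducing, 3.04 ± 0.176% in old reproducing and 2.96 ± 0.127% in young females (SD, n = 4 each). Over single libraries the members' share lay between 2.83% in young replicate 1 and 3.30% in old reproducing replicate 4, and the 3 groups overlapped.

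The SD of log2 CPM ran from 0.081 to 0.153 over the members, with a median of 0.140, against a median of 0.293 over the 4030 eligible genes that were not chosen. The highest library exceeded the lowest by 1.19 to 1.52 times, with a median of 1.38 times. In 195 of the 200 members this fold was under 1.5, which was also so in 427 of the 4230 eligible genes. The threshold fell in a dense stretch of the ranking. The last 2 members had SDs of 0.15312 and 0.15317 at mean levels of 91.3 and 24.1 CPM. The next 2 genes, just outside, had SDs of 0.15321 and 0.15325 at 494 and 38.5 CPM. Counting error made up a median of 6.42% of a member's variance and at most 34.3%, against a median of 1.62% over the eligible genes not chosen.

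**Figure D1:**
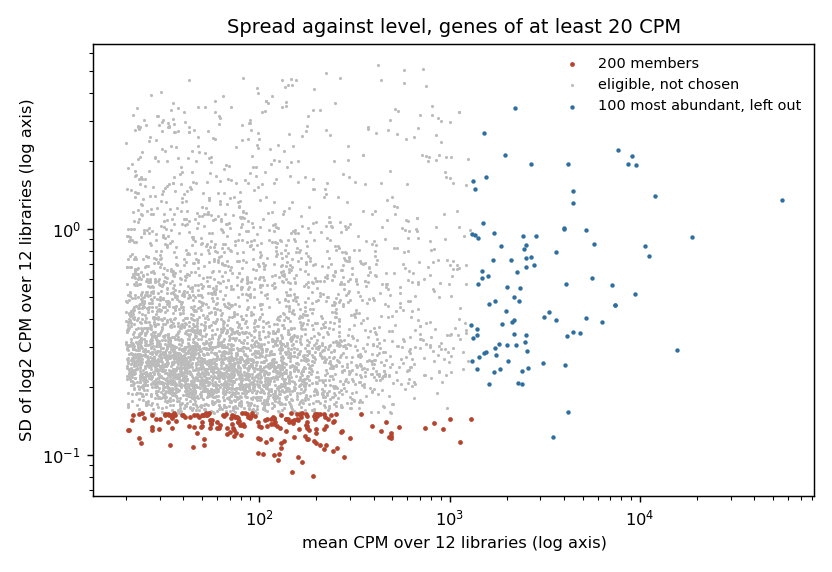
Points are genes that averaged 20 CPM or more and had reads in every library. The horizontal axis gives the mean CPM and the vertical axis the SD of log2 CPM, both on log axes. The 200 members lie along the lower edge, at SDs of 0.081 to 0.153, across nearly the whole range of levels below the 100 most abundant genes.

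The most stable member, maker-000010F-augustus-gene-3.59, had 191.4, 214.9, 196.6 and 182.9 CPM in old non-reproducing, 194.9, 182.4, 185.7 and 195.8 CPM in old reproducing and 204.4, 175.3, 184.4 and 197.9 CPM in young females, replicates 1 to 4. The 3 groups overlapped, and both the lowest and the second highest value were in young libraries. Its group means were 196.5 ± 13.5, 189.7 ± 6.67 and 190.5 ± 13.1 CPM in old non-reproducing, old reproducing and young females (SD, n = 4 each). The gene model is 2117 nucleotides long.

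The gene at rank 2, maker-000040F-augustus-gene-7.95, had 162, 147, 140 and 165 CPM in old non-reproducing, 144, 144, 150 and 154 CPM in old reproducing and 135, 144, 150 and 140 CPM in young females. Its lowest value was in a young library and its highest in an old non-reproducing one, and all 3 groups overlapped. Rank 3, a gene model of contig 000018F, had 167, 180, 148 and 168 CPM in old non-reproducing, 159, 167, 162 and 181 CPM in old reproducing and 159, 163, 169 and 187 CPM in young females. Its old non-reproducing replicate 3 was the lowest of the 12 libraries and its young replicate 4 the highest.

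Rank 4 had 121, 127, 128 and 116 CPM in old non-reproducing, 137, 115, 117 and 132 CPM in old reproducing and 131, 129, 115 and 137 CPM in young females. The old non-reproducing values lay inside the range of both other groups. Rank 5 had 284, 264, 286 and 303 CPM in old non-reproducing, 256, 280, 281 and 306 CPM in old reproducing and 252, 295, 284 and 252 CPM in young females. The lowest and the highest of these 12 values were both in reproducing females, young replicate 4 and old reproducing replicate 4.

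**Figure D2:**
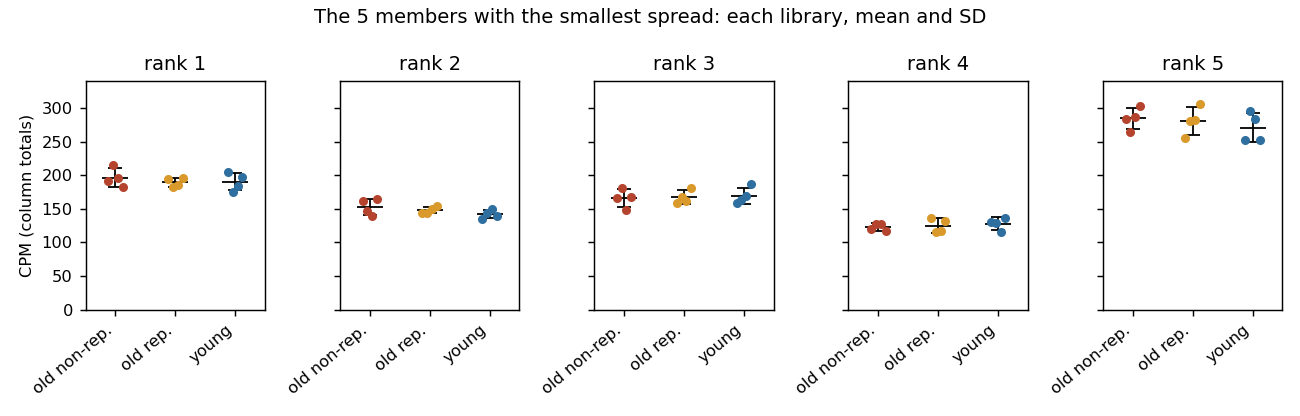
CPM of the 5 members with the smallest spread, ranks 1 to 5 from left to right, in old non-reproducing, old reproducing and young females. Points are libraries, and bars give the mean and SD of 4 libraries. In each of the 5 genes the 3 groups overlap, and rank 5 has the highest level, at 252 to 306 CPM.

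The levels of the members spanned most of the range the rule allowed. Mean CPM ran from 20.4 to 1294, with a median of 100.1, against a median of 65.4 over the eligible genes not chosen. The most abundant member, at rank 131, averaged 1279 ± 179 CPM in old non-reproducing, 1284 ± 124 CPM in old reproducing and 1318 ± 125 CPM in young females (SD, n = 4 each). It lay just under the lowest of the 100 genes set aside, which averaged 1295 CPM. The least abundant member, at rank 55, averaged 20.5 ± 2.42, 20.2 ± 2.23 and 20.4 ± 1.23 CPM in old non-reproducing, old reproducing and young females (SD, n = 4 each).

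Members were fewer among the weakly expressed eligible genes. When the eligible genes were divided into 5 equal classes by mean CPM, the lowest class, of 20.0 to 32.9 CPM, held 17 of its 846 genes as members, or 2.01%. The classes above it held 31, 44, 53 and 55 members in order of rising level, and the highest reached 6.50%. The median SD of the eligible genes did not fall steadily with level, being 0.307, 0.274, 0.262, 0.263 and 0.312 from the lowest class to the highest. Counting error made up a median of 4.34% of the variance of genes in the lowest class and 0.312% in the highest. Taking the counting variance off each gene left 185 of the 200 members in the choice. Per length, members averaged 3.11 to 648 RPKM (CPM divided by the length of the gene model in kilobases), with a median of 30.9 RPKM, against 23.5 RPKM over the eligible genes not chosen.

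Gene-model length showed no such gradient. Members were 288 to 17793 nucleotides long with a median of 2892, against a median of 3014 over the eligible genes not chosen. By classes of length from shortest to longest they numbered 34, 48, 38, 32 and 48. The longest member, at rank 61, averaged 943 ± 107, 926 ± 55.6 and 896 ± 95.6 CPM in old non-reproducing, old reproducing and young females (SD, n = 4 each). The shortest, at rank 75, averaged 48.7 ± 4.95, 43.1 ± 1.62 and 45.2 ± 4.36 CPM in the same order of groups (SD, n = 4 each).

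The first part of each ID names the source of the gene model, and the members had nearly the same make-up as the eligible genes. The prefix maker was carried by 75% of members and 76.4% of eligible genes, genemark by 11% and 10.6%, augustus_masked by 9.50% and 9.43%, and snap_masked by 4.50% and 3.57%. The IDs also name the contig. Members lay on 50 of the 102 contigs with an eligible gene, and 4.73% of all eligible genes were members. Among the 19 contigs with at least 100 eligible genes, the highest shares were those of contig 000022F, with 11 members among 105 eligible genes (10.5%), and contig 000004F, with 16 among 176 (9.09%). Both contigs hold pairs of members with near-identical counts, described below, and each gene of a pair was counted here. The lowest of these 19 were contig 000013F, with 1 member among 100, and contig 000005F, with 2 among 125. Contig 000018F, with 6 members among 128 eligible genes (4.69%), stood at the share of the whole. These contigs were picked out after their counts were seen, and the differences were not tested.

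Some members had nearly equal counts in every library. In 10 pairs of members the IDs shared the contig and the number before the point, and the raw counts of the pair lay within 10% of each other in every library, although the 2 gene models differed in length by 2.03 to 12.7 times. The closest pair, maker-000022F-augustus-gene-9.95 and snap_masked-000022F-processed-gene-9.9, are 913 and 2095 nucleotides long and had 29528 and 29612 reads in all. Their counts differed by at most 0.705% in any library, and their log2 CPM had a Pearson r of 0.9997 over the 12 libraries. The remaining pairs had r between 0.978 and 0.999. Whether the 2 gene models of such a pair overlap in the genome was not tested, since coordinates were not used here.

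With these pairs joined the 200 members came to 190 entries. A near-identical partner was found for 21 of the 200 members (10.5%), 1 of them paired with a gene that is no member, and for 176 of the 4230 eligible genes (4.16%), counting gene models of at least 100 reads in every library. The 2 shares are not quite alike. For the eligible genes both genes of a pair had to be eligible. The 4230 were also not required to reach 100 reads, while every member had at least 292 in each library. The 2 genes of such a pair have nearly the same spread by construction, and the difference in share was not tested. A per-length level of such a pair depends on which gene model is taken. The pair at ranks 4 and 8, with lengths of 375 and 4770 nucleotides, averaged 334 and 26.7 RPKM from counts that differed by at most 4.60%.

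The small changes of the members from library to library were partly shared. Over the 19900 pairs of members the median Pearson r of log2 CPM over the 12 libraries was 0.353, and 81.6% of pairs had r above 0. The corresponding values over pairs of eligible genes not chosen were 0.201 and 65.1%. The rule chose the members by these same values, so the difference describes the list and was not tested. The points of each correlation share the libraries and their totals. The first principal component of the members accounted for 39.0% of their variance and the second for 17.8%. Over the eligible genes not chosen the first component accounted for more, 52.1%. Genes were centred but not scaled, so those of large spread weigh most, and the SD of the genes not chosen reached 5.34. The 2 shares therefore do not compare how far changes are shared per gene. With the median deviation of all eligible genes taken off each library, the median r of member pairs was 0.240 with 75.7% of pairs above 0. That of the 56 pairs that shared contig and number was 0.639. Values with this median taken off were not computed for the genes not chosen.

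The libraries also differed in the median deviation of the members. Relative to each gene's own mean, the median member deviated on the log2 scale by 0.07, 0.07, -0.12 and 0.06 in old non-reproducing, by -0.04, -0.05, 0.03 and 0.16 in old reproducing and by -0.10, -0.07, -0.03 and 0.03 in young replicates 1 to 4. Old reproducing replicate 4 was the highest library and old non-reproducing replicate 3 the lowest, and the groups overlapped. In old reproducing replicate 4, 182 of the 200 members lay above their own mean and 34% had their highest value, against 25.4% of the eligible genes not chosen. In old non-reproducing replicate 3, 40 lay above their own mean and 31% had their lowest value, close to the 32.8% of the eligible genes not chosen.

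The eligible genes that were not chosen moved the same way in these 2 libraries and by more, with median deviations of 0.22 in old reproducing replicate 4 and -0.26 in old non-reproducing replicate 3. Old reproducing replicate 4 had the fewest reads of the 12 libraries, and in old non-reproducing replicate 3 the 100 most abundant genes took 43.2% of the reads, against 35.0 to 38.0% in the other libraries of its group. The part of these differences in the shifts was not tested. The members' median deviation by group was 0.02 ± 0.10 in old non-reproducing, 0.02 ± 0.10 in old reproducing and -0.04 ± 0.06 in young females (SD over libraries, n = 4 each). The ranges of the 3 groups overlapped, and the difference was not tested.

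**Figure D3:**
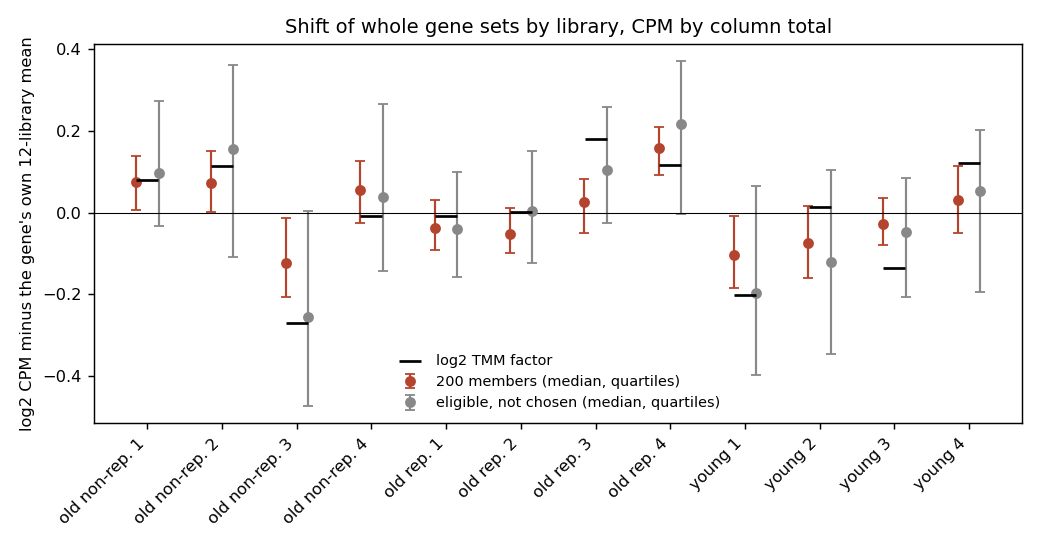
For each library, points give the median of log2 CPM minus the gene's own mean over 12 libraries, and bars reach from the lower to the upper quartile, for the 200 members and for the 4030 eligible genes not chosen. Black dashes give the log2 TMM factor of the library. The members are lowest in old non-reproducing replicate 3 (-0.12) and highest in old reproducing replicate 4 (0.16), and the genes not chosen deviate further there (-0.26 and 0.22).

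The list changed with the scaling of the libraries. TMM factors, which rest on the assumption that most genes do not change, changed the library sizes by -0.27 to 0.18 on the log2 scale. Under TMM scaling, 65 of the 200 members were still among the 200 most stable genes. With DESeq2 size factors 53 were, with upper-quartile factors 77, and with the column total less the 100 most abundant genes 120. The median SD of the same 200 members was 0.144, 0.154, 0.121 and 0.123 under these scalings in turn. The 200 genes that each of these scalings itself chose had median SDs of 0.113, 0.119, 0.0973 and 0.115. All were below the 0.140 of the members on column totals. Under each, no more than 2 of the 200 members had an SD above the median of the genes eligible under it.

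The list also changed with single libraries. Leaving out old non-reproducing replicate 3 kept 120 members, and leaving out old reproducing replicate 4 or young replicate 1 kept 141 each. Leaving out old reproducing replicate 1 kept 188, the most of the 12 choices. A total of 92 members were chosen in all 12 of these choices, 37 under column totals and all 4 other scalings, and 22 in all of these. The 22 genes lay between ranks 3 and 115, had mean levels of 23.4 to 301 CPM and differed by 1.26 to 1.44 times between their highest and lowest libraries on column totals. Rank 3 was the most stable of them, and ranks 1, 2, 4 and 5 were not among them.

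**Figure D4:**
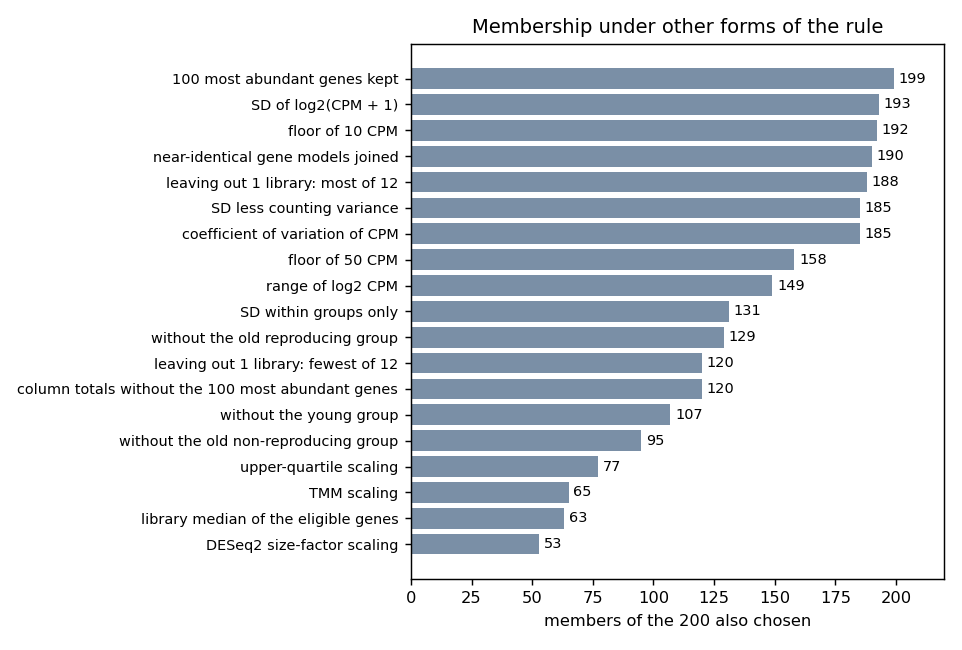
Bars give how many of the 200 members were also chosen when 1 part of the rule was changed, from the most at the top to the fewest at the bottom. Another floor or measure of spread kept 131 members or more, leaving out 1 library kept 120 to 188, and other scalings of the libraries kept 53 to 120.

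Values that the choice did not use were read by choosing 200 genes by the same rule from 11 libraries and measuring the library left out. In each of the 12 libraries the chosen genes deviated less from their mean over the other 11 than the remaining eligible genes did. Their median absolute deviation lay between 0.072 on the log2 scale, in young replicate 3, and 0.294, in old non-reproducing replicate 3, against 0.147 to 0.365 over the remaining genes. The ratio of the 2 medians was 0.474 to 0.806, with a median of 0.619. Deviations under 0.3 were found for 50.5 to 99% of the chosen genes, the lowest share again in old non-reproducing replicate 3, and for 42.0 to 77.7% of the remaining genes. With the median of all eligible genes taken off the library left out, the chosen genes deviated by 0.066 to 0.158 and the remaining ones by 0.137 to 0.256.

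The same was done for a whole group. Genes chosen from the 8 libraries of the other groups deviated by a median of 0.084 in the mean of the old non-reproducing group, against 0.136 for the remaining eligible genes. For the old reproducing group the medians were 0.055 and 0.129, and for the young group 0.148 and 0.178. On CPM by column total, young females lay below the mean of both old groups in the chosen genes and in the remaining ones. The signed medians were -0.14 and -0.12. For the 200 members the side of 0 changed with the scaling, as given below. Of the 200 members, 95, 129 and 107 were chosen again without the old non-reproducing, old reproducing and young group. The ratio of the 2 medians was not compared between groups by a test.

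**Figure D5:**
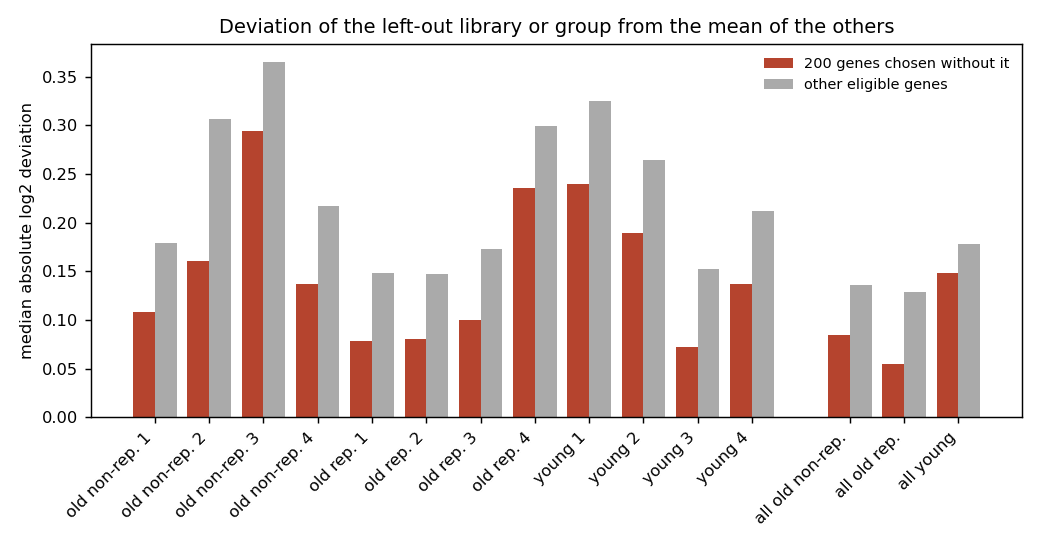
Bars give the median absolute log2 deviation of the left-out library (12 pairs on the left) or group mean (3 pairs on the right) from the mean of the other libraries, for the 200 genes chosen without it and for the other eligible genes. The chosen genes deviate less in all 12 libraries and all 3 groups, by 0.072 to 0.294 against 0.147 to 0.365 over single libraries.

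Each comparison between groups was fitted over the whole table with edgeR's quasi-likelihood test, TMM factors and Benjamini-Hochberg adjustment over 10987 genes, all 200 members among them. A gene is called where its adjusted p is under 0.05. The rule used these same libraries and chose against genes that differ, so the counts below describe the list and nothing is read from them. The comparisons against young share the young libraries, and those with old non-reproducing females share these.

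Between old non-reproducing and young females 0 of the 200 members were called by edgeR, where 12% of all tested genes were (7.73% higher and 4.26% lower). At an unadjusted p under 0.05 there were 0 members, against 30.9% of tested genes. DESeq2 called 0 members, against 20.5% of genes, and 1 member had an unadjusted p under 0.05, against 21.6%. Limma-trend on log2(RPKM + 1) called 0 members, against 1.74%, and 2 had an unadjusted p under 0.05, against 16.2%. The fitted log2 changes of the members ranged from -0.19 to 0.22, with a median standard error (SE) of 0.11. The 95% interval of the change lay within 0.5 of 0 on both sides for 99% of the members, against 18.8% of all tested genes. Of the eligible genes not chosen, which met the same floor of 20 CPM, 38.4% had such an interval.

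The members with the highest fitted changes in this comparison were ranks 175 and 163. Rank 175 had 52.9, 50.5, 44.8 and 53.6 CPM in old non-reproducing females, against 43.6, 41.9, 43.7 and 38.9 CPM in young ones, and the groups did not overlap. Its fitted log2 difference was 0.22 (SE 0.11, edgeR adjusted p = 0.207). Rank 163 had 244, 273, 226 and 277 CPM in old non-reproducing females, against 216, 217, 207 and 213 CPM in young ones, again without overlap, with a fitted log2 difference of 0.22 (SE 0.11, edgeR adjusted p = 0.205). With upper-quartile factors both were at 0.13, and rank 175 was also at 0.13 without young replicate 4.

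The lowest fitted changes were those of ranks 64 and 40. Rank 64 had 185.6, 151.9, 162.4 and 165.0 CPM in old non-reproducing females, against 174.1, 163.4, 199.3 and 209.2 CPM in young ones, with overlap between the groups. The fitted difference was -0.19 on the log2 scale (SE 0.13, edgeR adjusted p = 0.357). Rank 40 had 476, 507, 441 and 449 CPM in old non-reproducing females, against 540, 443, 552 and 525 CPM in young ones, and a fitted log2 difference of -0.18 (SE 0.15, edgeR adjusted p = 0.482). Single libraries moved both: rank 64 was at -0.11 without old non-reproducing replicate 2 and at -0.12 without young replicate 3, and rank 40 was at -0.095 without young replicate 1, -0.11 without young replicate 3 and -0.26 without young replicate 2. With upper-quartile factors rank 64 was at -0.29 and rank 40 at -0.27. On CPM by column total the groups did not overlap in 5 members, all 5 higher in old non-reproducing females. That is 2.5% of the members, against 11.8% of tested genes (8.58% higher and 3.25% lower).

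Between old reproducing and young females 0 members were called by edgeR, where 2.88% of all tested genes were (2.80% higher and 0.0728% lower). At an unadjusted p under 0.05 there were 0 members, against 13.2% of tested genes. DESeq2 called 0 members, against 4.18% of genes, and 10 had an unadjusted p under 0.05, against 10.7%. Limma-trend called 0 members, against 1.10%, and 0 had an unadjusted p under 0.05, against 8.83%. Fitted log2 changes ranged from -0.31 to 0.10. A 95% interval within 0.5 of 0 was found for 188 members, 45.4% of the eligible genes not chosen and 21.6% of tested genes. The groups did not overlap on column totals in 13 members, all 13 higher in old reproducing females, or 6.5% of the members. Of all tested genes 9.89% did not overlap, 9.30% higher and 0.592% lower.

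Rank 117 had the highest fitted change between old reproducing and young females. It had 56.9, 59.3, 61.2 and 61.4 CPM in old reproducing females, against 51.5, 49.1, 50.02 and 52.7 CPM in young ones, without overlap. On the TMM scale its fitted log2 difference was 0.10 (SE 0.090, edgeR adjusted p = 0.644), where the means of log2 CPM by column total lay 0.23 apart. It was 0.17 without young replicate 1, 0.064 without young replicate 2 and 0.064 without young replicate 4, and 0.060 with DESeq2 size factors. The next, rank 188, had 215.5, 228.2, 221.2 and 218.5 CPM in old reproducing females, against 200.5, 164.3, 202.5 and 193.8 CPM in young ones, also without overlap. Its fitted log2 difference was 0.08 (SE 0.13, edgeR adjusted p = 0.807), and it ran from -0.0030 without young replicate 2 to 0.16 without young replicate 1. It also moved by over 1.5 times without young replicate 3 (0.15), young replicate 4 (0.035), old reproducing replicate 2 (0.032) and old reproducing replicate 4 (0.13), and was 0.22 with column totals and 0.040 with DESeq2 size factors.

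The lowest was rank 100, with 116, 116, 108 and 119 CPM in old reproducing females, against 129.5, 112.6, 146.9 and 130.9 CPM in young ones. The groups overlapped through young replicate 2, and the fitted log2 difference was -0.31 (SE 0.16, edgeR adjusted p = 0.433). Rank 110 had 75.7, 75.1, 70.9 and 75.6 CPM in old reproducing females, against 80.2, 70.3, 77.8 and 98.6 CPM in young ones, with overlap and a fitted log2 difference of -0.25 (SE 0.12, edgeR adjusted p = 0.405). With column totals rank 100 was at -0.18 and rank 110 at -0.14.

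Between old non-reproducing and old reproducing females 0 members were called by edgeR, where 0% of all tested genes were. Without old non-reproducing replicate 1, 327 of all genes and 0 members were called. At an unadjusted p under 0.05 there were 0 members, against 8.06% of tested genes. DESeq2 called 0 members, against 2.82% of genes, and 2 had an unadjusted p under 0.05, against 6.57%. Limma-trend called 0 members, against 0.00466%, and 0 had an unadjusted p under 0.05, against 5.50%. Fitted log2 changes ranged from -0.09 to 0.29. A 95% interval within 0.5 of 0 was found for 188 members, 46.2% of the eligible genes not chosen and 22.9% of tested genes. On column totals the groups overlapped in all 200 members, where 4.43% of tested genes did not overlap.

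The highest fitted changes between the old groups were those of ranks 75 and 187. Rank 75 had 45.8, 43.6, 54.4 and 51.1 CPM in old non-reproducing females, against 44.1, 41.3, 44.8 and 42.3 CPM in old reproducing ones, a fitted log2 difference of 0.29 (SE 0.16, edgeR adjusted p = 0.705). Rank 187 had 348, 358.5, 413 and 325 CPM in old non-reproducing females, against 304, 299, 297 and 399 CPM in old reproducing ones, a fitted log2 difference of 0.27 (SE 0.16, edgeR adjusted p = 0.733). Without old non-reproducing replicate 3 the differences were 0.14 for rank 75 and 0.097 for rank 187, and with column totals 0.18 and 0.15. The lowest were rank 143, at -0.09 on the log2 scale (SE 0.089, edgeR adjusted p = 0.860), and rank 107, at -0.08 (SE 0.10, edgeR adjusted p = 0.896). Without old non-reproducing replicate 2 these were -0.054 for rank 143 and -0.032 for rank 107, without old reproducing replicate 1 rank 143 was at -0.058, and with column totals both were further from 0, at -0.18 and -0.17. In these 4 members the groups overlapped.

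The side of 0 on which the members lay changed with the scaling, so no direction is given for them as a set. Between old reproducing and young females 47 of 200 members had a fitted change above 0 with TMM factors and 153 with column totals, and the median of the members was -0.06 with TMM factors and 0.07 with column totals. The median change of all tested genes moved from one scaling to the other as well, being -0.03 with TMM factors and 0.09 with column totals. Relative to the median of the eligible genes, the median member lay at -0.06 under both scalings. Another scaling moves all genes of a comparison by nearly the same amount. Offsets from the eligible genes therefore hardly change with the scaling by construction, and their agreement across scalings is no check. Between old non-reproducing and old reproducing females 177 members were above 0 with TMM factors and 100 with column totals, and the median member lay 0.05 and 0.04 above the median of the eligible genes. Without old non-reproducing replicate 3 the offset with TMM factors was 0.0093. Between old non-reproducing and young females 115 members were above 0 with TMM factors, 140 with column totals and 57 with upper-quartile factors, and the median member lay at -0.03 to -0.02 relative to the median of the eligible genes under these 3 scalings. Over the fits that left out 1 library, this last offset ran from -0.07 without old non-reproducing replicate 3 to 0.01 without old non-reproducing replicate 2, so its sign rests on single libraries.

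On column totals, the difference between a member's highest and lowest group mean had a median of 0.12 on the log2 scale and reached 0.26, against a median of 0.27 over the eligible genes not chosen. Differences between groups made up a median of 14.6% of a member's variance, against 17.9% over the eligible genes not chosen, and over 50% in 8 of the 200 members, against 528 of the 4230 eligible genes. With 3 groups of 4 libraries such a share is above 0 even where age and reproduction have no effect. The share expected without an effect was not computed, so these values are not read as one. The median SD of a member within a group was 0.14 in old non-reproducing, 0.13 in old reproducing and 0.12 in young females, against 0.32, 0.23 and 0.26 over the eligible genes not chosen. The lowest of these medians was in young females for the members and in old reproducing females for the genes not chosen, and the difference in order was not tested.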

How the data were processed

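RNA was sequenced in 12 libraries, 4 per group, grouped and numbered from their titles. The library kit was directional, per the labels' protocols, and per the submitters' processing notes STAR and SAMtools were used. The counting program, strand setting, genome assembly and annotation are not given in the sources used here. The deposited tables hold whole-number read counts and RPKM values made by the authors, per the file headers, from which gene-model lengths were recovered as whole numbers. CPM, spreads and deviations were computed from the counts with the column total as library size (Python 3.11.15, pandas 2.3.3). The whole count table was fitted in R 4.3.3 with edgeR 4.0.16 (filterByExpr, TMM, robust quasi-likelihood, 1 mean per group, no covariate). SEs are the absolute log2 change over the square root of F, and 95% intervals use the t quantile of the fit. DESeq2 1.42.0 and limma-trend (limma 3.58.1, pseudocount 1, on RPKM) were alternatives. The edgeR code was tested on simulated data. All 18 pairs of libraries within groups differed by more than sampling noise (chi-square per degree of freedom at least 93.5). The members were chosen with earlier results of these data known. Members described singly are ranks 1 to 5, those at the threshold, the extremes of level and length, and the 2 highest and 2 lowest fitted changes of each comparison. The rule on near-identical pairs was chosen after seeing the data. No sequence was at hand for these gene models.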

Additional observations from a re-analysis of the deposited data

Results flagged for a closer look

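In each group of 4 libraries a sample was compared with its nearest neighbour by Dixon's ratio, the gap over the whole range, for 2 summaries of the 200 members and for the members described singly. Of 72 groups of values 6 passed the 95% limit of 0.829, where chance flags about 1 in 20, or 3.6. Old non-reproducing replicate 3 lay below the rest of its group in the members' share of reads, at 2.85% against 3.10 to 3.15% (ratio 0.829), and in their median deviation, at -0.12 against 0.06 to 0.07 (ratio 0.912). The same library was low for rank 117, at 50.6 CPM against 61.7 to 63.4 CPM (ratio 0.860), and for rank 188, at 183 CPM against 228 to 231 CPM (ratio 0.933). Old reproducing replicate 4 was high for rank 187, at 399 CPM against 297 to 304 CPM (ratio 0.9285). Old reproducing replicate 3 was low for rank 110, at 70.9 CPM against 75.1 to 75.7 CPM (ratio 0.882).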

How the results depend on the processing

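No member was called in any of the 3 comparisons under any alternative that was run, namely DESeq2, edgeR with 3 other scalings, no filter on low counts, the 8 libraries compared, the replicate block, limma-trend, an adjusted p of 0.01 and the 12 fits that each left out 1 library. The counts of called members over these 12 fits were 0 to 0 in each comparison. With the replicate block 0 members were called, and 498, 183 and 1 of all genes in place of 1317, 316 and 0. Over all alternatives the calls among all genes ran from 373 to 2834 between old non-reproducing and young, from 183 to 578 between old reproducing and young and from 0 to 355 between the old groups. The labels do not say that equal replicate numbers mark a shared batch, and 3 of the 12 same-numbered pairs of libraries deviated together with r over 0.1. The r of same-numbered pairs ran from -0.47 to 0.36, and that of differently numbered pairs from -0.54 to 0.57. Of the 200 members, 65 were kept with TMM scaling, 53 with DESeq2 size factors, 77 with upper-quartile factors, 120 without the reads of the 100 most abundant genes and 63 with the library median of the eligible genes, an alternative chosen after seeing the data. With the SD within groups 131 were kept, and without the old non-reproducing, old reproducing and young group 95, 129 and 107. Leaving out 1 library kept 120 to 188. The cause was not tested. The members' median SD of 0.140 became 0.121 with upper-quartile factors, 0.123 without the 100 most abundant genes and 0.123 with the library median of the genes not chosen, and 0.131 to 0.143 without 1 library. The fitted change of rank 188 between old reproducing and young females was 0.08, and over the fits that left out 1 library it ran from -0.0030, a reversal, without young replicate 2 to 0.165 without young replicate 1.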

Other observations

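One gene outside the members was as steady as they were. Of the 100 most abundant genes, which the rule sets aside, 1 had an SD within the members' range, at 0.120 with a mean of 3502 CPM, while the median SD of these 100 genes was 0.534. Pairs of gene models with near-identical counts were also found beyond the members. The 4230 eligible genes held 88 pairs, with 176 gene models, and the 10 pairs of members are included in these.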
